A study of Rattus norvegicus with 24 samples.

Results

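Adhesion molecules of the vessel wall were examined in the retina of diabetic and control rats. The set was fixed by name as 6 genes, namely Selp, Icam1, Vcam1, Pecam1, Itga1 and Itgb1, and every array probe whose RefSeq accession mapped to one of them was taken, whatever its value. Through their accessions 9 of the 33849 rat probes belonged to the set. They covered 5 of the 6 genes, since none of the accessions used here mapped to Pecam1. Selp and Itga1 had 1 probe each, Vcam1 and Itgb1 had 2 each, and Icam1 had 3.

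Retinal RNA of male Sprague Dawley rats had been hybridized to CodeLink rat whole genome arrays, spotted oligonucleotides read in 1 color, with 1 array for each sample. The 4 groups were rats given streptozotocin (STZ), which destroys pancreatic beta cells, and vehicle-injected controls of the same age, at 1 month and at 3 months after injection, with 6 arrays in each group, which the labels call biological replicates. The study's animal table lists fewer control rats at 1 month than there are arrays, so n counts arrays here, and whether each 1 month control array is a separate rat could not be settled. STZ rats received no insulin, and the rats of the 1 month and 3 month sets were raised and killed separately. The comparison of STZ with control asks how the retina changes with diabetes, and the 2 time points ask whether the change differs with its duration.

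Leukocytes leave the blood in steps. P-selectin (Selp), stored in endothelial cells and platelets, catches passing leukocytes and lets them roll. Intercellular and vascular cell adhesion molecule (Icam1 and Vcam1), members of the immunoglobulin superfamily on the endothelial surface, then bind leukocyte integrins and hold the cells in place, and Pecam1 lies at the junctions between endothelial cells through which they pass. Integrins are pairs of an alpha and a beta subunit. Itga1 pairs with Itgb1 in a receptor for collagen and laminin, while Itgb1 also pairs with many other alpha subunits. Icam1 and Vcam1 are known as genes that inflammatory cytokines induce through the transcription factor NF-kB, and raised leukocyte adhesion is a known feature of retinal vessels in diabetic rodents.

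The promoters of both inducible genes are shown because kappa B sites, the sequences that NF-kB binds, are what these genes are known for. The sequences were taken from RefSeq on the GRCr8 build, are the 250 bases before the annotated start of the gene, and are written in the direction of transcription with matches to a kappa B pattern in capitals.
Icam1, chr8:27829595-27829844, plus strand: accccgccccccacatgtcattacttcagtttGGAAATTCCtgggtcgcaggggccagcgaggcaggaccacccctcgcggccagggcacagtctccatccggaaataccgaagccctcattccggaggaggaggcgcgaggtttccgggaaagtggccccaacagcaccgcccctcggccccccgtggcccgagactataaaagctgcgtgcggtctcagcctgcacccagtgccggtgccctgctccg
Vcam1, chr2:206742784-206743033, minus strand: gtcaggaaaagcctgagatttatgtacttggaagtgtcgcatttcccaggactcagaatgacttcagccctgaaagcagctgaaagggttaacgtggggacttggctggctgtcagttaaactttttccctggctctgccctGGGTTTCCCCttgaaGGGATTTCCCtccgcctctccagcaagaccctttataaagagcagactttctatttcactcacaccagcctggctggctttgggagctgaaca

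The patterns searched on both strands were GGGNNTNNCC and GGANNTTCC. Icam1 held GGAAATTCC at -218 to -210 from the start, where GGANNTTCC matches on both strands. Vcam1 held GGGTTTCCCC at -108 to -99 and GGGATTTCCC at -93 to -84. Each of these promoters also held the letters TATAAA, at -53 in Icam1 and at -60 in Vcam1. In the same window, extended to 50 bases after the start, Itga1 held 1 match on the minus strand, read as GGCGACTCCC on the plus strand at -83 to -74, and Itgb1 held neither pattern. Promoters of Selp and Pecam1 were not analysed here. Among 33469 rat promoters of the same length, 17.3% held GGGNNTNNCC, 4.09% held GGANNTTCC, 20.2% held either and 14.2% held TATAAA. At least 2 matches of GGGNNTNNCC, as in Vcam1, were found in 2.98%. A match is a stretch of letters and was not tested for binding.

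The arrays differed in more than their groups. The median rat probe of an unscaled array had an intensity of 124 to 360, with group medians of 284 and 194 in the control and STZ arrays at 1 month and 232 and 148 at 3 months. The interquartile range of the log2 intensities was 3.47 at 1 month in both groups (medians), 1.81 in the 3 month controls and 2.50 in the 3 month STZ arrays. Control array 2 at 3 months stood apart, with a median correlation of 0.842 to the other arrays of its group against 0.957 to 0.973 for the rest of the group. Levels are given as log2 of the intensity divided by the median of the array's rat probes, so 0 is the array's middle probe. At 3 months the STZ minus control difference of all 22025 tested probes had a median of 0.44 on the log2 scale, and at 1 month it was 0.01. The levels of a gene are therefore set beside that shift below. In whole retina, fewer cells of a type and less RNA per cell cannot be told apart.

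In the retina after 3 months of diabetes, Icam1 and Vcam1 were the adhesion molecules with the highest increases, although 1 of the 3 Icam1 probes fell, while neither Selp nor Itgb1 passed the test and Itga1 rose by less than the median probe. Of the 8 probes bright enough to be tested, 5 were called higher and 0 lower (limma with 1.2-fold as the smallest difference and a threshold of 0.05 on p after Benjamini-Hochberg adjustment). Among all tested probes 50.5% were called higher and 3.55% lower at 3 months, so a share of 5 in 8 was near the background. Each STZ array exceeded every control array for 3 of the 8 probes, against 9.49% of all tested probes. The test of the study's methods was a one-way analysis of variance without equal variances at an unadjusted p under 0.01. The study combined it with a 1.2-fold limit. This test called 4 of the 8 higher, namely both Vcam1 probes and both tested Icam1 probes, and 15.8% of all probes higher and 1.13% lower. The median difference of the 8 probes was 0.52, beside 0.44 over all tested probes, and 4 of the 8 lay above that value.

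**Figure D1:**
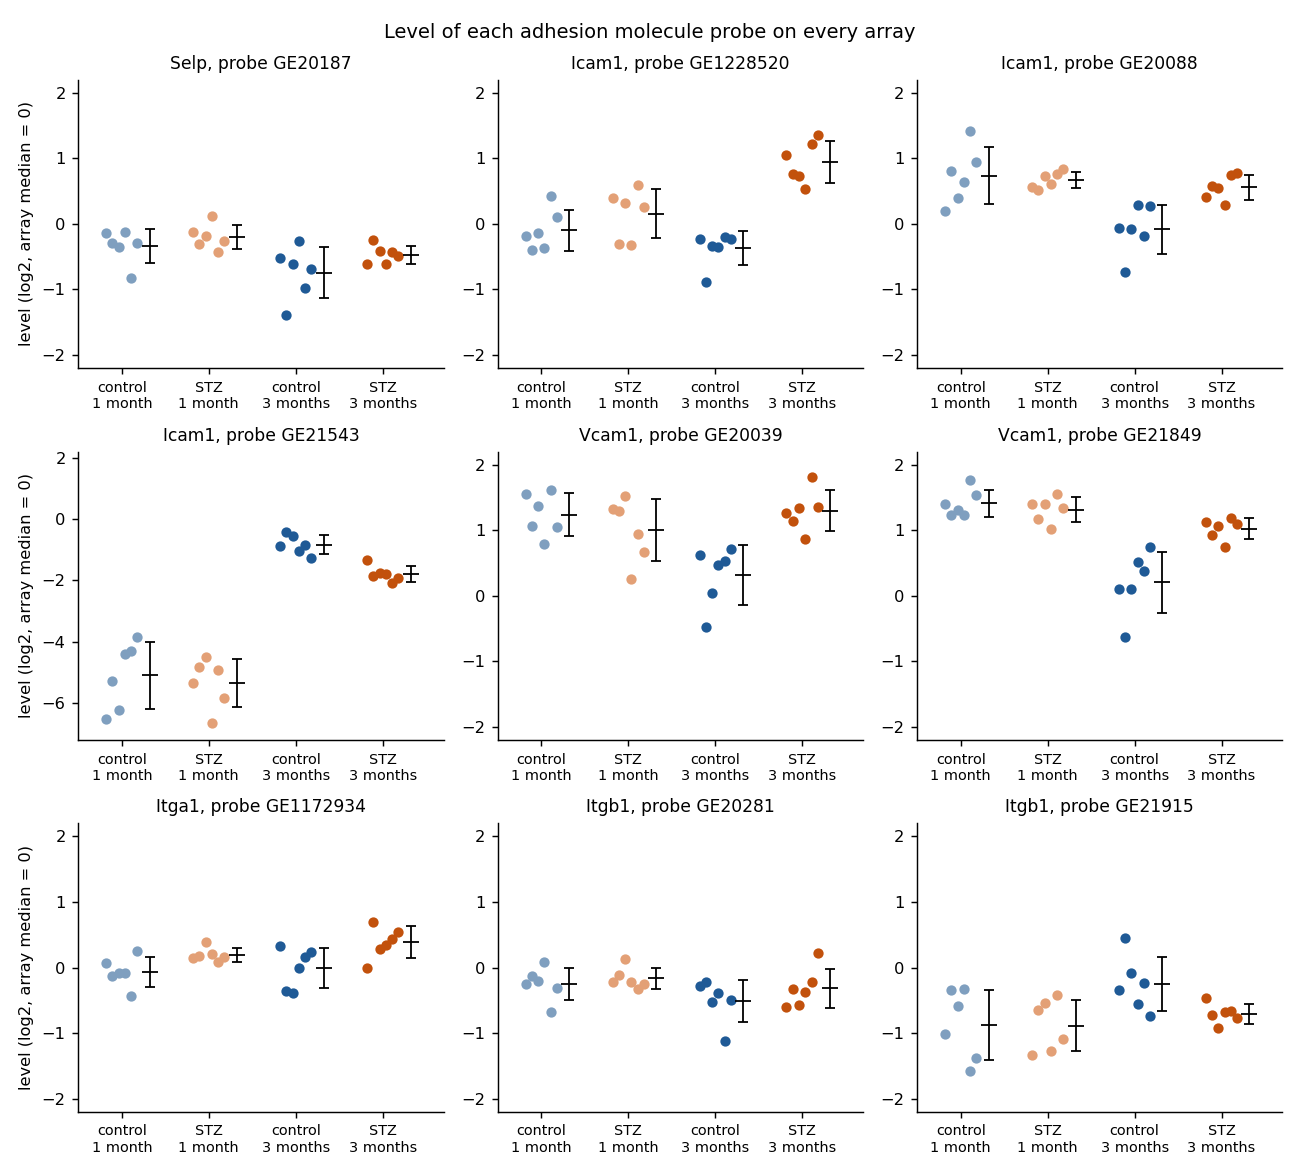
Level of each of the 9 probes on every array, as log2 of the intensity over the array median (vertical axis), for the 4 groups of 6 arrays (points), with the mean and SD beside them. For Icam1 probe GE1228520 and both Vcam1 probes all 3 month STZ points lie above all 3 month control points. The vertical axis of Icam1 probe GE21543 is longer than the others.

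The selectin lay mostly below the array's middle probe. Selp, probe GE20187, had log2 levels of -1.39 to -0.26 (median -0.65) on the 3 month control arrays and of -0.61 to -0.25 (median -0.46) on the STZ arrays. The groups overlapped, with 5 of the 6 STZ arrays inside the control range and the other just above it, and the lowest level came from control array 2. The difference was 0.28 with a standard error of 0.16 (adjusted p = 0.142, n = 6 arrays per group), below the median shift of 0.44, and 34.4% of the tested probes had a lower difference. Without control array 2 it was 0.14 (adjusted p = 0.4055). At 1 month the levels were -0.83 to -0.13 in controls and -0.43 to 0.12 in STZ rats, with a difference of 0.14 (SE 0.16, adjusted p = 0.9999). This result turned on the scaling. Selp rose by 0.71 (SE 0.20, adjusted p = 0.00806) after quantile normalization of all arrays and by 0.40 (SE 0.15, adjusted p = 0.0449) when the arrays of each time point were normalized separately.

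Icam1 was read by 3 probes that carried the same accession and gave different answers. On probe GE1228520 the levels were -0.88 to -0.19 (median -0.28) in the 3 month controls and 0.54 to 1.36 (median 0.90) in the 3 month STZ rats. No STZ array came down to a control level. The rise was 1.31 on the log2 scale, or 2.49-fold (SE 0.18, adjusted p = 4.22e-05), and exceeded that of 98.8% of the tested probes. The lowest control level again came from array 2, and without that array the rise was 1.21 (adjusted p = 9.5e-05).

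On probe GE20088 the 3 month levels were -0.74 to 0.29 (median -0.07) in controls and 0.29 to 0.77 (median 0.56) in STZ rats. The lowest STZ array lay just inside the top of the control range. The rise was 0.64, or 1.56-fold (SE 0.18, adjusted p = 0.00544), and exceeded that of 73.3% of the tested probes. Before scaling, the median intensity of this probe was 207 in the 3 month controls and 214 in the STZ rats. The rise thus appeared on division by the array medians, which had group medians of 232 and 148. On GE1228520 the unscaled medians were 180 and 275. Without control array 2 the rise on GE20088 was 0.51 (adjusted p = 0.0169). With array brightness as a covariate it was 0.31 (adjusted p = 0.136).

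Probe GE21543 fell. Its median scaled intensity over all arrays was below the limit of 0.554 set for testing, so its values come from a fit over all 33849 rat probes. The 3 month levels were -1.26 to -0.43 (median -0.86) in controls and -2.08 to -1.33 (median -1.83) in STZ rats, and every STZ array lay below every control array, as on 3.6% of the rat probes. In that fit the difference was -0.95 (SE 0.37, adjusted p = 0.0397) where the median probe moved by 0.19, and 32.1% of the probes were called higher and 14.2% lower. The call was lost without any 1 of 9 of the 3 month arrays, among them control array 2 (-0.87, adjusted p = 0.0912), and with quantile normalization within each time point (-0.74, adjusted p = 0.138). At 1 month the same probe read -6.51 to -3.85 in controls and -6.64 to -4.50 in STZ rats. Those values were at the dim end of the array, as the 5th percentile of the rat probes had a median of -4.63 and -4.54 in the same groups. The probe's median position in its array was 4.33% and 2.89% at 1 month in control and STZ arrays, and 20.0% and 5.11% at 3 months. None of the 1 month arrays and none of the 3 month STZ arrays put this probe above the limit, and 3 of the 3 month control arrays did. The part of the dim end of the arrays in this fall was not tested.

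The disagreement between the Icam1 probes could be measured within each array, where the scaling cancels. GE20088 minus GE1228520 was 0.29 ± 0.24 (SD, n = 6) in the 3 month controls and -0.39 ± 0.21 (SD, n = 6) in the 3 month STZ rats, a shift of -0.67 between groups that did not overlap (exact permutation test, two-sided p = 0.00216, the smallest this design allows). After adjustment over the 10 comparisons of probe pairs of one gene, p was 0.00722. Those 10 included the 3 month pairs with GE21543, which gave the same smallest p and so lowered this adjusted value. At 1 month GE20088 minus GE1228520 was 0.83 ± 0.32 (SD, n = 6) in controls and 0.51 ± 0.32 (SD, n = 6) in STZ rats (exact permutation p = 0.108, adjusted p = 0.216). GE1228520 thus rose more than GE20088 at 3 months, by a margin over the spread between arrays. GE21543 ran the other way, but since it was under the limit on all 3 month STZ arrays its distance from the other probes is not given as a measured difference. The mean of all 3 probes rose by 0.33 at 3 months (SE 0.19, adjusted p = 0.137), which would leave Icam1 without a call. The probe sequences were not used here.

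**Figure D2:**
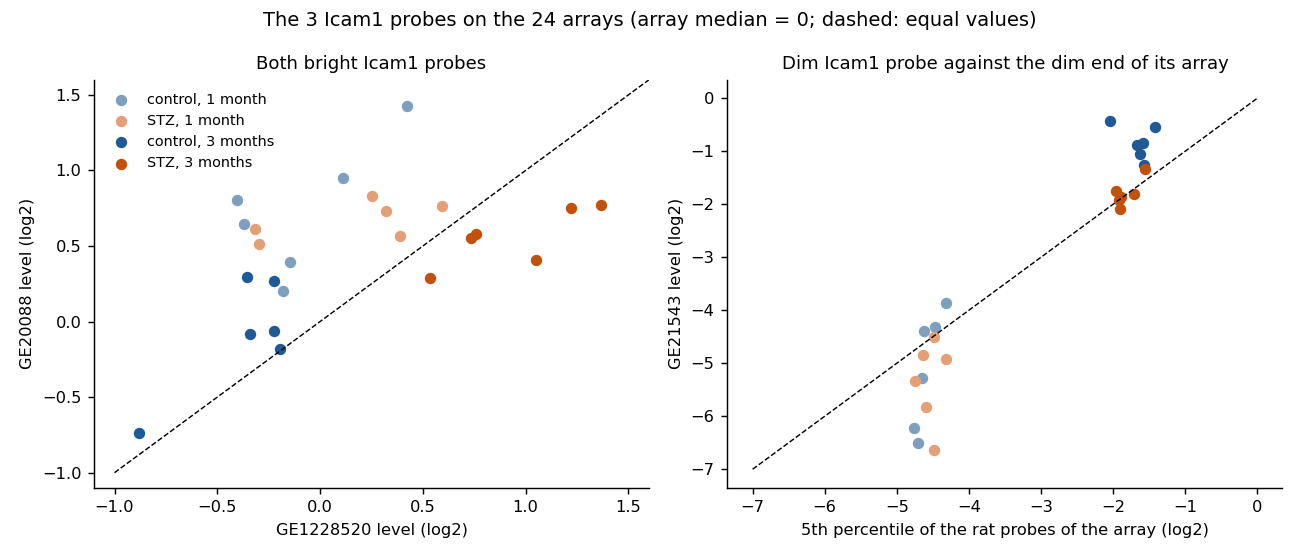
The 3 Icam1 probes on the 24 arrays, all axes in log2 with the array median at 0 and dashed lines where both values are equal. Left, GE20088 against GE1228520, where the 3 month STZ arrays lie below the line and all other arrays above it. Right, GE21543 against the 5th percentile of its own array, where the 1 month arrays lie at or below -3.85.

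Vcam1 gave the same answer on both of its array probes. In the paper's quantitative PCR, Icam1 was significantly altered at 3 months across independent sets of rats. Vcam1 was not significant there in every set. On GE20039 the 3 month levels were -0.48 to 0.72 (median 0.50) in controls and 0.86 to 1.81 (median 1.30) in STZ rats. On GE21849 they were -0.62 to 0.74 (median 0.24) in controls and 0.75 to 1.18 (median 1.08) in STZ rats. Neither probe had an STZ array at or below a control array, although on GE21849 the gap between the highest control and the lowest STZ array was small. Before scaling, the median intensities of the 3 month control and STZ arrays were 281 and 358 on GE20039 and 252 and 289 on GE21849.

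The rise was 0.98, or 1.97-fold, on GE20039 (SE 0.22, adjusted p = 0.00124) and 0.82, or 1.77-fold, on GE21849 (SE 0.17, adjusted p = 0.000742). These were above 95.2% and 88.9% of the tested probes. Control array 2 gave the lowest level on both, and without it the rises were 0.82 (adjusted p = 0.00371) and 0.66 (adjusted p = 0.00102). The difference between both probes shifted by 0.16 at 3 months (exact permutation p = 0.247, adjusted p = 0.411), within the spread between arrays. Their mean rose by 0.90 (SE 0.18, adjusted p = 0.00067).

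The collagen-binding integrin moved less. Itga1, the alpha1 subunit, read by GE1172934, had 3 month levels of -0.38 to 0.32 (median 0.08) in controls and of 0.00 to 0.70 (median 0.39) in STZ rats, and the groups overlapped. The difference of 0.39 (1.31-fold, SE 0.15, adjusted p = 0.0286) passed the test but was smaller than the median shift of all probes, and 44.7% of the tested probes had a lower one. The call was lost without control array 2 or 3 or without STZ array 2, 5 or 6 (differences of 0.32 to 0.38, adjusted p = 0.0528 to 0.0847), and after quantile normalization (0.45, SE 0.18, adjusted p = 0.0543).

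Itgb1, the common beta1 subunit, had a pair of probes that pointed apart without either passing the test. GE20281 had 3 month levels of -1.12 to -0.22 (median -0.44) in controls and -0.61 to 0.21 (median -0.35) in STZ rats, with a difference of 0.19 (SE 0.16, adjusted p = 0.313). It was 0.07 without control array 5 and 0.08 without STZ array 6. GE21915 had levels of -0.75 to 0.45 (median -0.29) in controls and -0.92 to -0.47 (median -0.71) in STZ rats, with a difference of -0.45 (SE 0.22, adjusted p = 0.0765). Only 3.69% of the tested probes had a lower difference than GE21915. The highest of its control levels came from array 2, and without that array the difference was -0.31 (adjusted p = 0.226). With array weights, which count less consistent arrays for less, both probes were called, GE20281 higher (0.40, adjusted p = 0.0302) and GE21915 lower (-0.42, adjusted p = 0.0352). The difference between both probes shifted by 0.64 at 3 months (exact permutation p = 0.0303, adjusted p = 0.0758 over the 10 pairs).

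**Figure D3:**
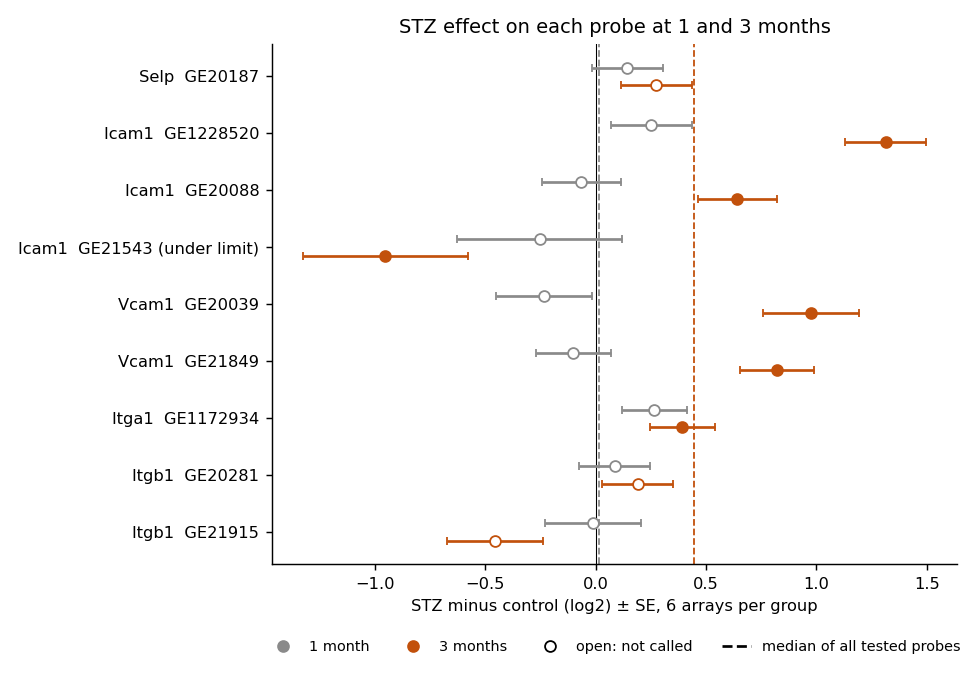
STZ minus control difference of each probe on the log2 scale with its standard error (horizontal axis) at 1 month (gray) and 3 months (orange), 6 arrays per group. Filled points were called, and dashed lines mark the median of all tested probes, 0.01 and 0.44. Icam1 GE21543 comes from the fit over all rat probes.

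After 1 month of diabetes none of the 8 tested probes was called, and their differences ran from -0.24 to 0.26 (limma, all adjusted p = 0.9999). Over all probes only 2 were called at 1 month, both higher (0.00908%), while 927 had an unadjusted p under 0.05. Icam1 differed by 0.25 on GE1228520 (control -0.40 to 0.42, STZ -0.32 to 0.59) and by -0.06 on GE20088 (control 0.20 to 1.42, STZ 0.51 to 0.83). Vcam1 differed by -0.24 on GE20039 (control 0.78 to 1.61, STZ 0.25 to 1.53) and by -0.10 on GE21849 (control 1.23 to 1.76, STZ 1.02 to 1.56). Itga1 had the largest 1 month difference of the set at 0.26 (SE 0.15), with controls at -0.44 to 0.25 and STZ rats at 0.08 to 0.39. On all 8 probes, the control and STZ ranges overlapped.

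The change in the STZ effect between 1 and 3 months was tested directly, as the difference of both differences. It was 1.06 for Icam1 on GE1228520 (SE 0.26, adjusted p = 0.0199), 1.21 for Vcam1 on GE20039 (SE 0.31, adjusted p = 0.023) and 0.92 for Vcam1 on GE21849 (SE 0.24, adjusted p = 0.0241). These 3 of the 8 probes were called higher and 0 lower, where 14.8% of all tested probes were called higher and 0.731% lower and the median over all of them was 0.44. After quantile normalization the difference of Vcam1 GE21849 missed the threshold (0.84, adjusted p = 0.0602), and with that normalization within each time point both Vcam1 probes did (0.95 and 0.72, adjusted p = 0.0679 and 0.076). On GE20088 the Icam1 difference of 0.71 (SE 0.25, adjusted p = 0.054) missed the threshold. The other probes lay between -0.44 for Itgb1 GE21915 and 0.13 for Selp and Itga1, with adjusted p from 0.262 to 0.726.

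The 3 month difference of Vcam1 lay on control levels that were lower than those of the younger set. On GE20039 the mean level was 1.24 ± 0.33 in the 1 month controls, 1.00 ± 0.48 in the 1 month STZ rats, 0.32 ± 0.45 in the 3 month controls and 1.29 ± 0.31 in the 3 month STZ rats (SD, n = 6 each). On GE21849 the order was 1.41 ± 0.21, 1.31 ± 0.19, 0.20 ± 0.47 and 1.02 ± 0.16 (SD, n = 6 each). The 3 month controls were the lowest group on both probes. The 3 month STZ arrays overlapped the 1 month arrays on GE20039, and on GE21849 all of them lay below all 1 month controls. Icam1 on GE20088 was also lowest in the 3 month controls, with means of 0.74, 0.67, -0.08 and 0.56. On GE1228520 the 3 month STZ mean of 0.94 was the highest of the 4, beside -0.09, 0.16 and -0.37. Rats of the 1 and 3 month sets were handled separately and their arrays differed in spread, so age and array set cannot be told apart in these levels. As a position within the array, which uses ranks only, Vcam1 GE20039 had medians of 68.1%, 67.0%, 63.4% and 71.6% in the same order of groups and Vcam1 GE21849 had 69.6%, 70.5%, 57.4% and 68.0%. Icam1 GE1228520 had 47.5%, 54.4%, 39.4% and 66.1%, and Icam1 GE20088 had 61.3%, 60.3%, 47.3% and 60.5%. The 3 month controls were lowest on all 4 probes, whereas the 3 month STZ arrays were highest on GE20039 and GE1228520 and not on the others.

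How the arrays were treated changed the size of these differences. Across median scaling, quantile normalization, quantile normalization within each time point and subtraction of the array's 5th percentile, Icam1 GE1228520 rose by 1.22 to 1.77, Vcam1 GE20039 by 0.72 to 1.16, Vcam1 GE21849 by 0.62 to 1.01 and Icam1 GE20088 by 0.55 to 0.86, and each was called in all 4. Quantile normalization reduced the median shift of all probes to 0.16 and the shares called higher and lower to 24.6% and 6.92%. With the interquartile range of each array as a covariate, which itself differed between the 3 month groups, 0 of the 22025 probes were called at 3 months and 1934 had an unadjusted p under 0.05. In that fit the Icam1 rise on GE1228520 was 1.11 (SE 0.30, adjusted p = 0.358) beside a median of 0.05 over all probes, and the Vcam1 rises were 0.37 (SE 0.33, adjusted p = 0.7145) and 0.52 (SE 0.27, adjusted p = 0.569). The part of the array spread in the 3 month differences was not tested further.

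**Figure D4:**
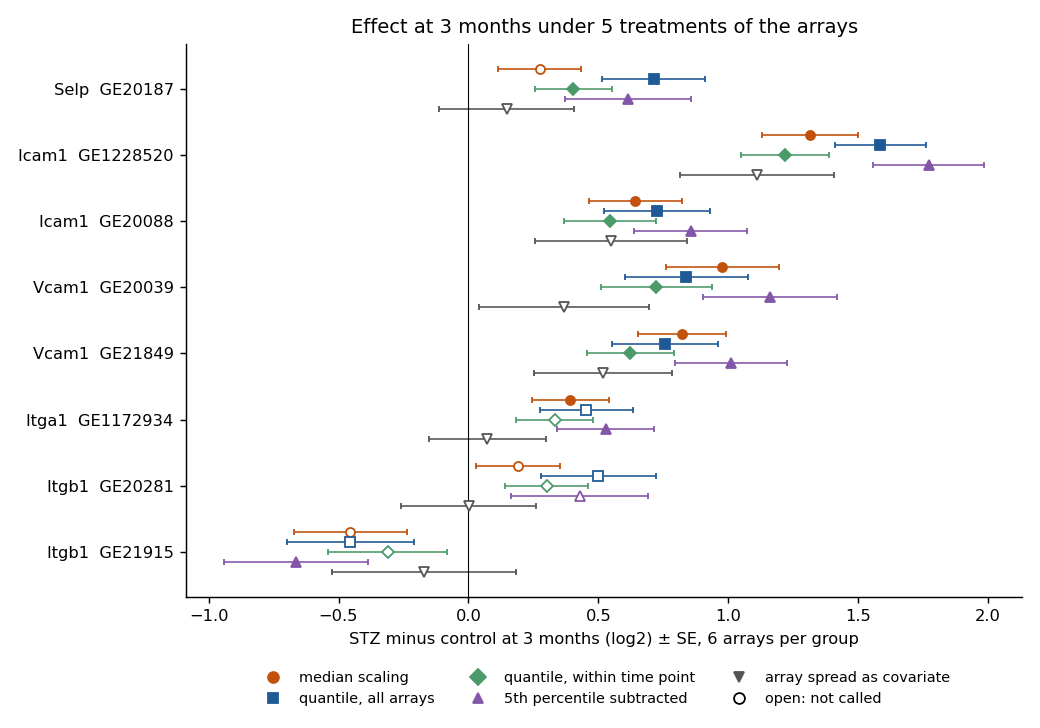
STZ minus control difference at 3 months on the log2 scale with its standard error, for the 8 tested probes under 5 treatments of the same 24 arrays (symbols). Filled symbols had an adjusted p under 0.05. Both Icam1 probes and both Vcam1 probes shown stay filled except with array spread as a covariate, where no probe is filled.

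Related genes were read from lists, with the brightest probe standing for each gene. Few list members could be named through accessions, and the list counts at 3 months are to be set beside the 50.5% of all probes called higher. Of 24 other adhesion molecules listed, 9 were tested, 6 rose and 0 fell, with a median difference of 0.55. The list was not limited to leukocyte adhesion. L1cam (0.76, adjusted p = 0.0129) was among those that rose, and Ncam1 (0.32, adjusted p = 0.160) was tested without a call. F11r, a junction protein of endothelium and epithelium, rose most (0.86, SE 0.24, adjusted p = 0.00548), Sele, the cytokine-induced endothelial selectin, rose by 0.54 (SE 0.21, adjusted p = 0.0348), and Mcam, an endothelial and pericyte adhesion molecule, had the lowest difference (0.11, SE 0.15, adjusted p = 0.557). Of 24 other integrin subunits 3 were tested and 2 rose, namely Itgb4, the partner of alpha6 in hemidesmosomes, by 0.67 (SE 0.15, adjusted p = 0.00153) and Itgam, a leukocyte subunit that binds Icam1, by 0.64 (SE 0.19, adjusted p = 0.00734), whereas Itgae stood at 0.02 (adjusted p = 0.929).

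Among the matrix genes, all 3 tested of 18 listed rose: Col5a1 by 0.81 (SE 0.21), Lamb2 by 0.63 (SE 0.16) and Col1a2 by 0.51 (SE 0.16), with adjusted p of 0.00327 to 0.00908. Of the proteins that join adhesion receptors to the cytoskeleton, 4 of 25 were tested and 3 rose. These were the kinases Src by 1.26 (SE 0.18, adjusted p = 4.3e-05) and Ptk2, the focal adhesion kinase, by 1.01 (SE 0.23, adjusted p = 0.00124), and Ilk by 0.48 (SE 0.18, adjusted p = 0.0287). Rhoa, a small GTPase, stood at 0.22 (adjusted p = 0.345).

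Of 24 cytokines, receptors and members of the NF-kB pathway, 10 were tested, 5 rose and 0 fell, with a median of 0.59. Those that rose were Ikbkg by 1.15 (SE 0.20) and Ikbkb by 0.75 (SE 0.21), subunits of the kinase that releases NF-kB, the cytokine Il1a by 0.98 (SE 0.18), the interferon gamma receptor Ifngr1 by 0.75 (SE 0.18) and the TNF receptor Tnfrsf1b by 0.71 (SE 0.16). Adjusted p ran from 0.000237 for Ikbkg to 0.00561 for Ikbkb. Rela, an NF-kB subunit with an activating domain, stood at 0.13 (adjusted p = 0.413), and the lowest of the list was Tnfrsf1a at 0.08 (adjusted p = 0.717). At 1 month 0 members of these lists were called. Among the differences at 1 month, the widest was that of Rhoa at -0.42 (limma adjusted p = 0.9999).

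**Figure D5:**
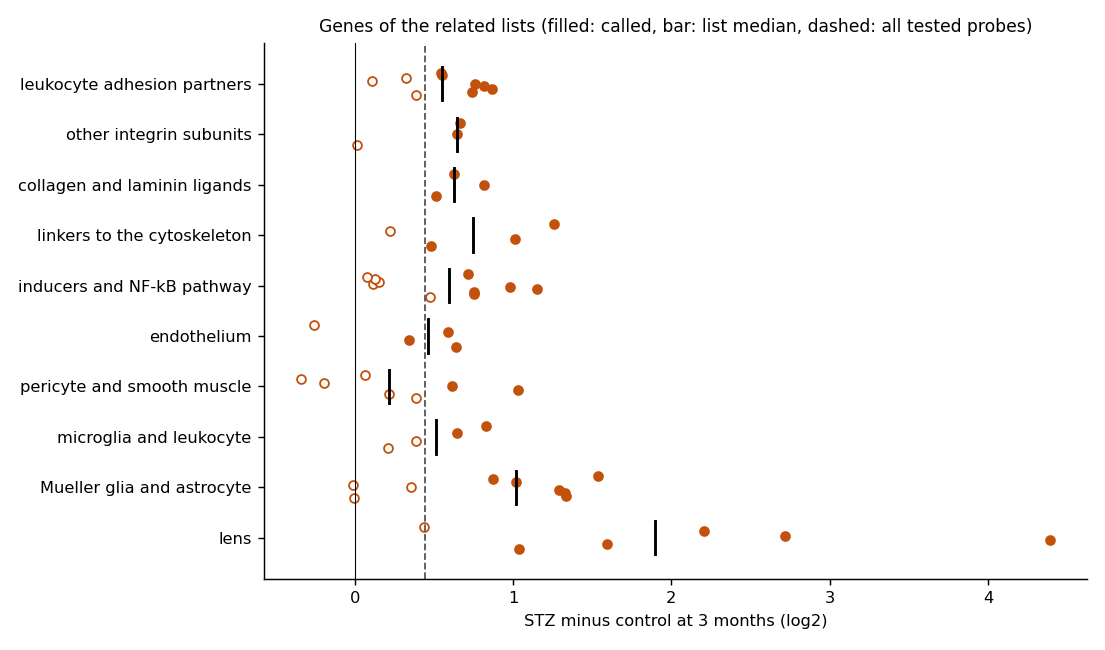
STZ minus control difference at 3 months on the log2 scale for the tested genes of 10 lists (points, 1 per gene, filled where called), with each list's median (bar) and the median of all tested probes at 0.44 (dashed line). The lens and Mueller glia lists lie farthest to the right, and the medians of the adhesion lists lie near 0.55 to 0.75.

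Markers of the cells that carry or meet these molecules were read the same way. Of 15 endothelial markers 4 were tested and 3 rose at 3 months, namely the drug transporter Abcb1a by 0.64 (SE 0.18, adjusted p = 0.00575) and the VEGF receptors Kdr by 0.59 (SE 0.24, adjusted p = 0.0451) and Flt1 by 0.34 (SE 0.13, adjusted p = 0.0347), while the organic anion transporter Slco1a4 stood at -0.26 (adjusted p = 0.311). The summed scaled level of the endothelial markers was 8.13 to 21.1 in the 3 month controls and 14.7 to 26.4 in the STZ rats, with overlap. Of 12 pericyte and smooth muscle markers 7 were tested and 2 rose (Cspg4 by 1.03 and Notch3 by 0.61), with a list median of 0.21 and Rgs5 lowest at -0.34 (adjusted p = 0.157). The summed level was 16.4 to 29.4 in controls and 25.1 to 35.1 in STZ rats.

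Of 19 markers of microglia and leukocytes 10 had a probe, 4 were tested and 2 rose (Ncf1 by 0.83 and Itgam), with Aif1 at 0.21 (adjusted p = 0.4). The 6 others, among them Ptprc, the common leukocyte antigen, Cx3cr1, Cd3d, Cd4 and Cd8a, were below the limit for testing. The summed level was 7.70 to 10.8 in the 3 month controls and 8.68 to 10.5 in the STZ rats, with overlap. Of 10 platelet markers 1 was tested, Gata1, a factor of the megakaryocyte and red cell lineages, which rose by 0.88 (SE 0.17). Of 8 red cell markers 2 were tested and 1 rose (Slc4a1 by 0.43), with Alas2 at -0.34 (adjusted p = 0.208).

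Several markers of other retinal cells and of the lens also rose at 3 months. Of 13 Mueller glia and astrocyte markers 9 were tested and 6 rose, with a median of 1.02, from Kcnj10 at -0.01 (adjusted p = 0.959) to the intermediate filament Vim at 1.53 (SE 0.23). Their summed level was 56.7 to 154.79 in the 3 month controls and 154.96 to 217 in the STZ rats. Of 14 lens markers 6 were tested and 5 rose, with a median of 1.90, from Lim2 at 0.43 (adjusted p = 0.342) to Crygd at 4.39 (SE 0.86), and their summed level was 79.7 to 169 in the 3 month controls and 208 to 464 in the STZ rats, without overlap. At 1 month the lens sum was 105 to 269 in controls and 29.3 to 284 in STZ rats. Of 15 rod and cone markers 7 were tested and 4 rose (median 0.53, summed level 221 to 500 in the 3 month controls and 420 to 624 in the STZ rats), and of 10 markers of the pigment epithelium 2 were tested and 0 rose. The amount of each tissue was not measured, and its part in the Icam1 and Vcam1 differences was not tested.

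The genes whose levels followed each adhesion molecule most closely were found from the deviations of the 24 arrays from their group means. For Vcam1 GE21849 they were Atg3 (r = 0.956), Lhb (r = 0.943) and Cd81 (r = 0.942), and for Icam1 GE20088 they were Cngb1 (r = 0.876), Csnk2a1 (r = 0.875) and Notch3 (r = 0.858). Selp was followed by Dab2ip (r = 0.825), Itga1 by Prdx2 (r = 0.819) and Itgb1 GE20281 by Ppargc1a (r = 0.688). All genes of an array share its scaling, and these values describe 24 arrays without a test. They are the highest among many genes, and how high such maxima run was not tested. Spearman's rho was lower for the genes named here, such as 0.753 for Cngb1 and 0.738 for Dab2ip, except for Ppargc1a (0.710).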

How the data were processed

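Each sample was retinal RNA on 1 array. Per the paper's methods, spots outside the manufacturer's specification were excluded, local background was subtracted and each array was normalized within itself by the CodeLink software. The deposited values were the background-subtracted intensity of each spot on a linear scale, and that intensity divided by a constant near the array median, deposited as a normalized signal. Values in the table of the whole series matched those of the single arrays within 1e-06 throughout, no array repeated another, and 3 arrays lacked 1 probe value each. A genome build for the array files is not given in the sources used here, and the promoter coordinates are RefSeq's own (GRCr8).

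The intensity was divided by the median of the array's 33849 rat probes (62 bacterial probes left out), with a floor of 0.01, before log2 was taken. Dim probes were left out of the test, namely those with a median over the 24 arrays at or below 0.554, the 35th percentile over all probes, or with fewer than 4 values in a group, which left 22025. Present calls were not used. The number of arrays limits the precision. The 4 groups entered 1 linear model (limma 3.58.1, R 4.3.3), and calls needed p under 0.05 after Benjamini-Hochberg adjustment and a 1.2-fold difference. Differences between probes of one gene were compared with exact permutation tests in scipy 1.17.1, an addition made with the values known. The fit did not pair arrays, because replicate numbers are only labels.

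Accessions were matched to symbols through RefSeq (4674 probes, 4012 genes, 3141 probes tested). Named list genes are the highest and lowest of a list and the called ones where 5 or fewer were called, and some are left out. Sele and Rela were named after their values were seen. The members and lists were chosen with earlier results of these data known.

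The alternatives were other normalizations, filters and floors, the methods' test with and without adjustment, no fold limit and separate models. Further ones were a replicate block, array weights, covariates, gene means and each array left out. The methods' test was a one-way analysis of variance without equal variances at p under 0.01. The study combined it with a 1.2-fold limit. Quantile normalization within each time point was added for the difference of the effects after the data had been seen.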

Additional observations from a re-analysis of the deposited data

Results flagged for a closer look

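Single arrays lay far from the rest of their group for 3 of the 36 sets of 6 levels examined (9 probes in 4 groups), by the gap to the nearest array over the range of the group. Chance marks about 1 in 20 such sets. The lowest 3 month control of Icam1 GE1228520 was array 2 at -0.88 (log2), where the other 5 controls lay at -0.35 to -0.19. For Selp GE20187 the lowest 1 month control was array 5 at -0.83, and for Itgb1 GE20281 the lowest 3 month control was array 5 at -1.12. The STZ effect was larger at 3 months than at 1 month, by the test of the difference itself, for Icam1 GE1228520 (1.06), Vcam1 GE20039 (1.21) and Vcam1 GE21849 (0.92). The arrays of the 1 and 3 month sets also differed in spread, with a median interquartile range of 3.47 in both 1 month groups, and its part in these values was not tested.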

How the results depend on the processing

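The limit on all 24 arrays left out Icam1 GE1228520. Otherwise both Vcam1 probes and both tested Icam1 probes kept their direction at 3 months under all alternatives run. Each lost its call with array spread as a covariate, the Icam1 probes lost it when averaged with the dim one, Vcam1 GE21849 (adjusted p = 0.0541) and Icam1 GE20088 (adjusted p = 0.0542) missed it in the methods' test after Benjamini-Hochberg adjustment, and Icam1 GE20088 lost it with array brightness (0.31, adjusted p = 0.136). Itga1 also lost its call in the methods' test, with separate models of the time points and with array brightness. No value could be given for Icam1 GE21543 at 1 month with a floor of 0.1, where all arrays were at the floor. The number of arrays, the dim level of several probes and the unequal array spread limit these results, and the cause of each change below was not tested.

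Of the 8 adhesion probes, 5 were called at 3 months. The count was 2 in the methods' test with adjustment, 3 with array brightness as a covariate and 0 with array spread as a covariate, and leaving out 1 array gave 4 to 6. It was 7, of which 6 were higher and 1 (Itgb1 GE21915) lower, both with the 5th percentile subtracted, which added Selp, and with array weights, which added Itgb1 GE20281. For the difference of the effects the count of 3 became 1 with quantile normalization within each time point and 0 with array spread. Over all probes the 3 month count of 11911 became 6948 with quantile normalization, 5536 with quantile normalization within each time point, 3722 in the methods' test, 1921 with its adjustment, 4058 with array brightness and 0 with array spread. The count for the difference, 3414, became 866 with quantile normalization within each time point, 10325 with array weights, 1228 with array brightness and 0 with array spread (977 at an unadjusted p under 0.05), and leaving out 1 array gave 759 to 9230. At 1 month the count of 2 became 0 with quantile normalization, subtraction of the 5th percentile, the limit on all 24 arrays, the adjusted methods' test or separate models, 1 with quantile normalization within each time point, a floor of 0.1 or the replicate block, 4 without a filter, 262 in the methods' test and 360 with array weights, and leaving out 1 array gave 1 to 5.

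The sign turned in the following cases. At 1 month Itgb1 GE21915 was 0.0057 with quantile normalization, 0.013 with it within time points, 0.12 with array brightness and 0.036 as the mean of both Itgb1 probes, with a range of -0.15 to 0.094 when 1 array was left out. Array weights gave 0.073 for Icam1 GE20088, 0.014 for Icam1 GE21543 and 0.017 for Vcam1 GE21849, and the mean of the Icam1 probes was -0.023. Leaving out 1 array gave -0.17 to 0.073 for Icam1 GE20088, -0.54 to 0.0051 for Icam1 GE21543 and -0.001 to 0.15 for Itgb1 GE20281. At 3 months the mean of the Itgb1 probes was -0.13, that of the Icam1 probes 0.33, and Icam1 GE21543 was 0.11 with array spread. For the difference of the effects, array spread gave -0.20 for Itga1, -0.089 for Itgb1 GE20281 and 0.38 for Icam1 GE21543, the means over probes were -0.17 for Itgb1 and 0.36 for Icam1, and leaving out 1 array gave -0.019 to 0.19 for Itgb1 GE20281.

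The replicate numbers did not pair the arrays, as 12 pairs had correlations of -0.24 to 0.25 and 3 correlated best with their own number. With the replicate block 5 adhesion probes were called at 3 months (11589 of all probes) and 4 for the difference of the effects, where Icam1 GE20088 was added (adjusted p = 0.0461), and Icam1 GE21543 lost its call at 3 months (adjusted p = 0.0599). The block changed no other call of these probes.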

Other observations

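Within groups, Icam1 and Vcam1 probes were correlated from array to array to unequal degrees. Over the 24 deviations from the group means, Pearson's r was 0.755 (Spearman's rho 0.802) between Icam1 GE1228520 and Vcam1 GE21849, 0.741 between Icam1 GE20088 and Vcam1 GE21849, 0.595 between Icam1 GE1228520 and Vcam1 GE20039, and 0.368 (Spearman's rho 0.276) between Icam1 GE20088 and Vcam1 GE20039. Probes of one gene had r of 0.618 for Icam1 (GE20088 and GE1228520), 0.700 for Vcam1 and 0.364 for Itgb1. Itgb1 GE21915 had negative values, with r of -0.561 to Vcam1 GE21849 and -0.550 to Icam1 GE20088. All values of an array share its scaling and its dim end, so these correlations are given as a description without a test.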
